A study of Arabidopsis thaliana with 8 samples.

Results

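STZ and COR47 are 2 abiotic stress genes of Arabidopsis thaliana, each measured by 1 probe set of the ATH-1 array (STZ is AT1G27730 and COR47 is AT1G20440). They were taken as the probe sets annotated to 1 gene only with these symbols, and make up 2 of the 13356 genes that have such a probe set and 2 of the 22810 probe sets in all. Both genes were chosen by their heat effects and relative translation efficiency in these same arrays, so their values are given as a description, with standard errors and no test. The study asked how a heat shock changed the steady-state level of each mRNA and its association with polysomes. Seedlings of the Columbia-0 ecotype, 7 days old, were held at 38°C for 45 min or taken at 22°C directly from the growth chamber. From each seedling sample, polysome-bound mRNA (mRNA-PB, the pooled polysomal fractions of a sucrose gradient) and total mRNA (mRNA-TOT) were hybridized, which gave 4 groups of 2 arrays: mRNA-PB at 38°C, mRNA-PB at 22°C, mRNA-TOT at 38°C and mRNA-TOT at 22°C. The 2 arrays of a group are biological replicates of whole seedlings.

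STZ, also known as ZAT10, is a C2H2 zinc finger transcription factor with an EAR motif, which represses transcription. Its mRNA is known to accumulate quickly in salt, drought, cold and after wounding, and its protein is a substrate of MAP kinases. COR47 is an acidic dehydrin, a member of the late embryogenesis abundant (LEA) proteins. Dehydrins are hydrophilic, accumulate in cold, drought and after abscisic acid treatment, and are thought to protect membranes and proteins when cells lose water. An mRNA that carries several ribosomes sediments with the polysomes, so the share of an mRNA found there is used as a measure of its translation.

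Values were log2 signals, and the precision is limited by the number of arrays, 2 per group. The values of the 2 heat-stressed mRNA-PB arrays carry a factor for the relative polysome content of the sample, whose log2 was -0.84 and -0.89, and their deposited means over all probe sets were 5.30 and 5.25, against 6.15 to 6.18 on the other 6 arrays. Of 12 seedling markers, 2 had a probe set of 1 gene, both of root: PYK10 had a signal of 12.46 to 13.27 and EXPA7 of 5.46 to 7.42, above the limit of 3.32 set by the trp control probe sets on 8 of 8 arrays. None of the 6 shoot markers had one in the annotation used here, so the shoot was not checked.

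Both genes had a higher signal at 38°C than at 22°C in each RNA population. The signal of STZ in mRNA-PB was 8.62 and 8.19 at 38°C, against 6.08 and 5.29 at 22°C. In mRNA-TOT it was 8.85 and 8.38 at 38°C, against 6.54 and 5.47 at 22°C. The arrays of the 2 temperatures did not overlap in either population. On the array, STZ stood above 90.7% and 88.0% of probe sets in mRNA-PB at 38°C, against 48.8% and 40.1% at 22°C. In mRNA-TOT it stood above 86.4% and 81.9% at 38°C, against 55.2% and 41.3% at 22°C. STZ thus lay near the middle of the signals in control seedlings and in the upper part after heat.

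The signal of COR47 in mRNA-PB was 12.97 and 12.82 at 38°C, against 12.08 and 11.59 at 22°C. In mRNA-TOT it was 13.62 and 13.26 at 38°C, against 12.16 and 11.42 at 22°C. COR47 was among the brightest probe sets on every array, above 97.6% to 99.9% of them, and 41 probe sets had a higher highest group mean with the factor divided out. Again the arrays of the 2 temperatures did not overlap. Higher deposited signals on both arrays at 38°C without overlap were found for 4.26% of all probe sets in mRNA-PB and 35% in mRNA-TOT. The factor lowers every mRNA-PB value at 38°C and so the first share, which cannot be set against the second. In whole seedlings, a different number of cells of a type and a different amount of RNA per cell cannot be told apart.

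**Figure D1:**
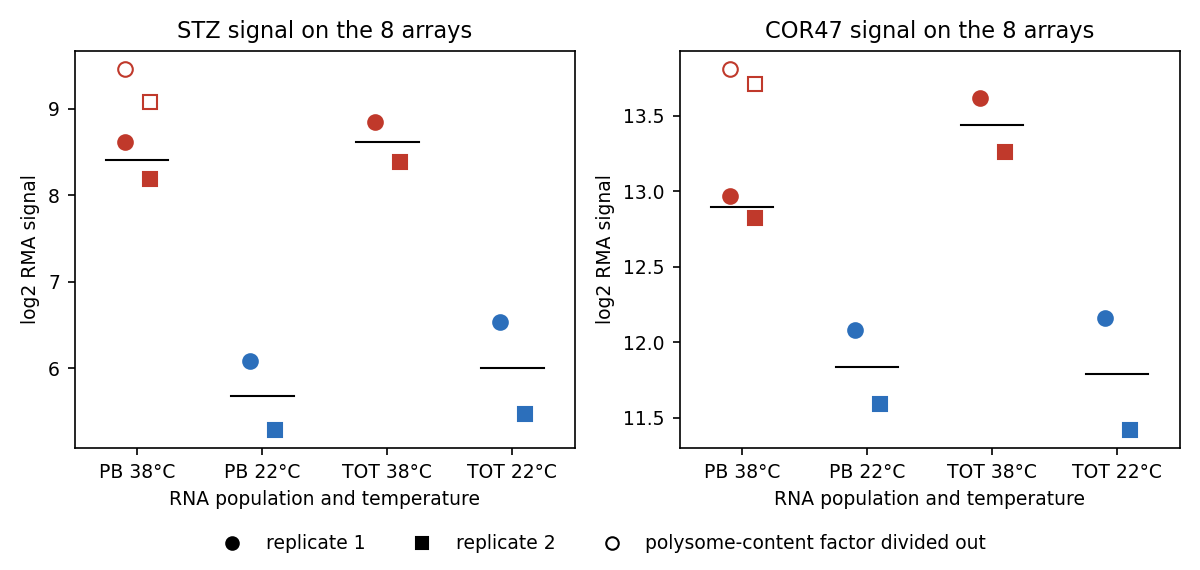
Log2 signal of STZ (left) and COR47 (right) on the 8 arrays, by RNA population (PB, polysome-bound; TOT, total) and temperature, with replicates 1 and 2 as circles and squares, deposited values filled, values with the polysome-content factor divided out open, and a line at the mean of the deposited values. The arrays at 38°C lay above those at 22°C in each population, and replicate 1 lay above replicate 2 in all 4 groups.

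In order of level, STZ averaged 8.62 ± 0.33 in mRNA-TOT at 38°C, 8.41 ± 0.30 in mRNA-PB at 38°C, 6.01 ± 0.76 in mRNA-TOT at 22°C and 5.69 ± 0.56 in mRNA-PB at 22°C (SD, n = 2 each). The arrays of the 2 heat-stressed groups overlapped, and so did those of the 2 control groups. With the factor divided out, mRNA-PB at 38°C averaged 9.27 ± 0.27 and no longer overlapped with mRNA-TOT at 38°C. COR47 averaged 13.44 ± 0.25 in mRNA-TOT at 38°C, 12.90 ± 0.11 in mRNA-PB at 38°C, 11.84 ± 0.35 in mRNA-PB at 22°C and 11.79 ± 0.52 in mRNA-TOT at 22°C. Its 2 control groups overlapped, and its heat-stressed groups did not. With the factor divided out, COR47 in mRNA-PB at 38°C averaged 13.76 ± 0.07, above mRNA-TOT at 38°C.

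Replicate 1 was higher than replicate 2 in all 4 groups for both genes. The gap was widest in control seedlings: for STZ it was 0.79 in mRNA-PB and 1.07 in mRNA-TOT at 22°C, larger than for 95.2% and 97.5% of probe sets. For COR47 it was 0.49 in mRNA-PB and 0.74 in mRNA-TOT at 22°C, larger than for 87.2% and 94.3%. At 38°C the gaps of STZ were 0.43 in mRNA-PB and 0.47 in mRNA-TOT, and those of COR47 were 0.15 and 0.36. Such an order in all 4 groups, with replicate 1 higher, was found for 17.8% of all probe sets. For both genes the control arrays of a population thus lay further apart than the heat-stressed ones.

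The heat effect of STZ in mRNA-TOT was a log2 difference of 2.61 (SE 0.41), 6.11-fold, with 1.84 to 3.38 over the 4 pairs of a heat-stressed and a control array. In mRNA-PB it was 2.72 (SE 0.41), 6.59-fold, with 2.11 to 3.33 over the pairs. These ranked 267 and 139 of 22810 probe sets from the top. COR47 had a log2 difference of 1.65 (SE 0.28) in mRNA-TOT, 3.14-fold, and 1.06 (SE 0.28) in mRNA-PB, 2.08-fold. Its single differences spanned 1.10 to 2.20 in mRNA-TOT and 0.74 to 1.38 in mRNA-PB, and its ranks were 603 and 489. These pairs also cross replicate 1 with replicate 2. Fitted with the replicate number as a block, the SE in each population was 0.17 for STZ and 0.16 for COR47. With arrays scaled by the poly-A spike-in probe sets, the log2 difference of COR47 in mRNA-TOT was 0.98, under 2-fold. The median over all probe sets was 0.03 in mRNA-TOT and -0.85 in mRNA-PB, since the factor lowers every mRNA-PB value at 38°C. Calls needed at least a 2-fold change and an adjusted p below 0.05 (limma, Benjamini-Hochberg over all probe sets). By this rule 4.63% of probe sets rose and 7.06% fell in mRNA-TOT, and 2.07% rose and 37.1% fell in mRNA-PB. Both genes were selected on these contrasts, so their position in them is not a result. With the factor divided out, the heat effect in mRNA-PB was 3.59 for STZ and 1.93 for COR47.

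The step from the level to polysome association is the ratio of mRNA-PB to mRNA-TOT within a seedling sample, here called polysome loading and given in log2 with the factor divided out, so that 0 is about the array average. Loading of STZ was 0.61 and 0.70 in the 2 samples at 38°C, against -0.46 and -0.18 at 22°C. At 38°C these values stood above 96.7% and 96.3% of probe sets, against 4.55% and 26.0% at 22°C. STZ thus was below the average of its array in both control samples and in the top few percent in both heat-stressed ones. Loading of COR47 was 0.19 and 0.45 at 38°C, against -0.08 and 0.17 at 22°C. It was higher than in 72.0% and 89.1% of probe sets at 38°C, against 34.5% and 75.2% at 22°C. The samples of COR47 were kept apart by only 0.02. Loading was higher at 38°C without overlap for 27.3% of all probe sets and lower for 24.3%, so the absence of overlap is no result about either gene. Loading above 0 in both samples at 38°C and below 0 in both at 22°C, as for STZ, was found for 8.11% of probe sets.

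**Figure D2:**
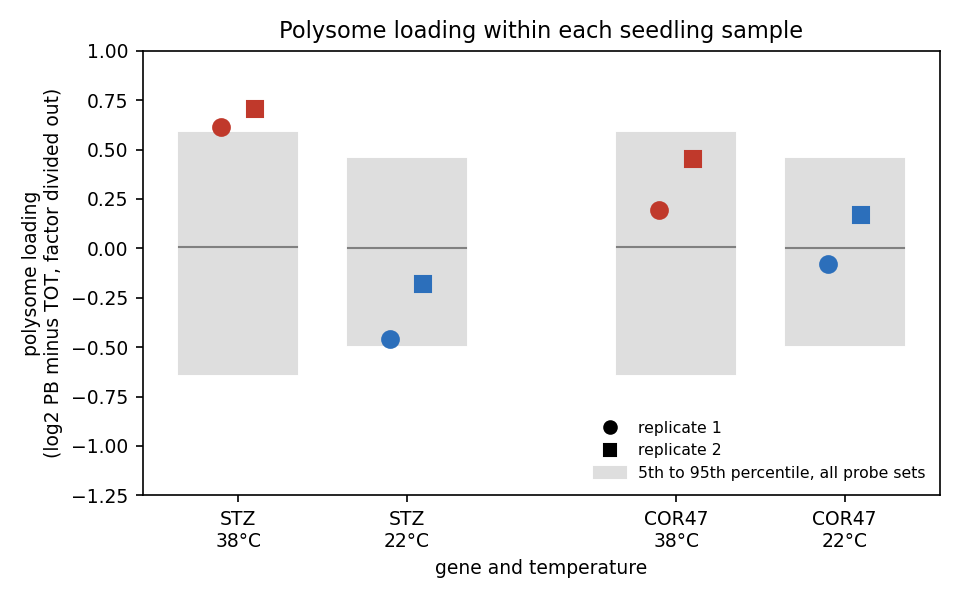
Polysome loading (log2 of mRNA-PB over mRNA-TOT within a seedling sample, factor divided out) of STZ and COR47 at 38°C (red) and 22°C (blue), with the 5th to 95th percentile of all probe sets in grey and their median as a line. STZ lay above the grey range in both samples at 38°C, at 0.61 and 0.70, and in its lower part at 22°C, while COR47 lay inside the range in all 4 samples.

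The difference between the heat effects, that of mRNA-PB with the factor divided out minus that of mRNA-TOT, was 0.98 for STZ (SE 0.58), with 0.79 to 1.16 over the pairs of samples. For COR47 it was 0.28 (SE 0.40), with 0.02 to 0.53. Fitted with the seedling sample as a block, the SE was 0.17 for each. STZ ranked 30 of 22810 probe sets and COR47 ranked 4214, and the 5th to 95th percentile of all probe sets was -0.52 to 0.51. Without replicate 1 of mRNA-TOT at 22°C the difference was 0.44 for STZ and -0.09 for COR47, without replicate 2 of that group it was 1.51 for STZ and 0.65 for COR47, and without replicate 2 of mRNA-PB at 22°C it was 0.58 for STZ. Leaving out both arrays of a seedling sample, which keeps the pairs whole, gave 0.84 to 1.12 for STZ and 0.15 to 0.41 for COR47. These values are relative to the array average. With the factor kept, the difference was 0.11 for STZ and -0.59 for COR47, which turns the direction for COR47. With spike-in scaling it was 1.80 for STZ and 1.10 for COR47.

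On a linear scale with the factor kept, the ratio of the heat effects is the relative translation efficiency, ΔmRNA-PB/ΔmRNA-TOT. It was 1.08 for STZ, with 0.966 to 1.21 over the pairs of samples, and 0.664 for COR47, with 0.566 to 0.779. Over 13356 genes the mean was 0.555 and the median 0.543. STZ was above 99.9% of genes and above 0.832, which is 1.5 times the mean, in every pair. COR47 was above 84.3% of genes, above the mean and below 0.832 in every pair. Both genes were chosen with this ratio known, so their place in it is a description and not a result. The same holds for their ranks in the difference between heat effects, which comes from the same contrasts. The pairs reuse the same 2 samples per temperature and are not independent.

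Among the 1055 probe sets that rose in mRNA-TOT, the median difference between the heat effects was 0.003, and the 5th to 95th percentile was -0.78 to 0.51. Of these, 6 lay above STZ and 195 above COR47. The 4 of them with a single gene were CML37 (1.32), AT5G53680 (1.16), AT4G19430 (1.08) and AT5G45630 (1.00). Over all probe sets 29 lay above STZ, 15 of them of 1 gene. The highest group mean was lower than that of STZ for 26 of the 29, and under 6 for 8 of them.

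In the difference between heat effects, limma without a block called 0% of probe sets above 0 and 0% below it. The unadjusted p was below 0.05 for 549 probe sets with a positive and 783 with a negative difference. With the seedling sample as a block, 89 were called above 0 (0.39%) and 222 below (0.973%). Of 26 other stress genes listed, 0 were called without the block (2 at an unadjusted p below 0.05, 1 in each direction) and 2 with it, CML37 and AtLEA4-1. CML37, a calmodulin-like protein, had a difference of 1.32 (SE 0.15, adjusted p = 0.0128, limma with the block). AtLEA4-1, an LEA protein, had 0.88 (SE 0.15, adjusted p = 0.0324, limma with the block). Loading of AtLEA4-1 was 1.20 and 1.30 at 38°C, against 0.37 and 0.38 at 22°C, and that of CML37 was 1.24 and 1.22 at 38°C, against -0.06 and -0.11 at 22°C. Both genes thus kept their samples well apart. The signals of CML37 at 22°C were 3.07 to 3.22, below the trp control limit of 3.32. Its loading at 22°C was thus a ratio of signals at the level of the controls.

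**Figure D3:**
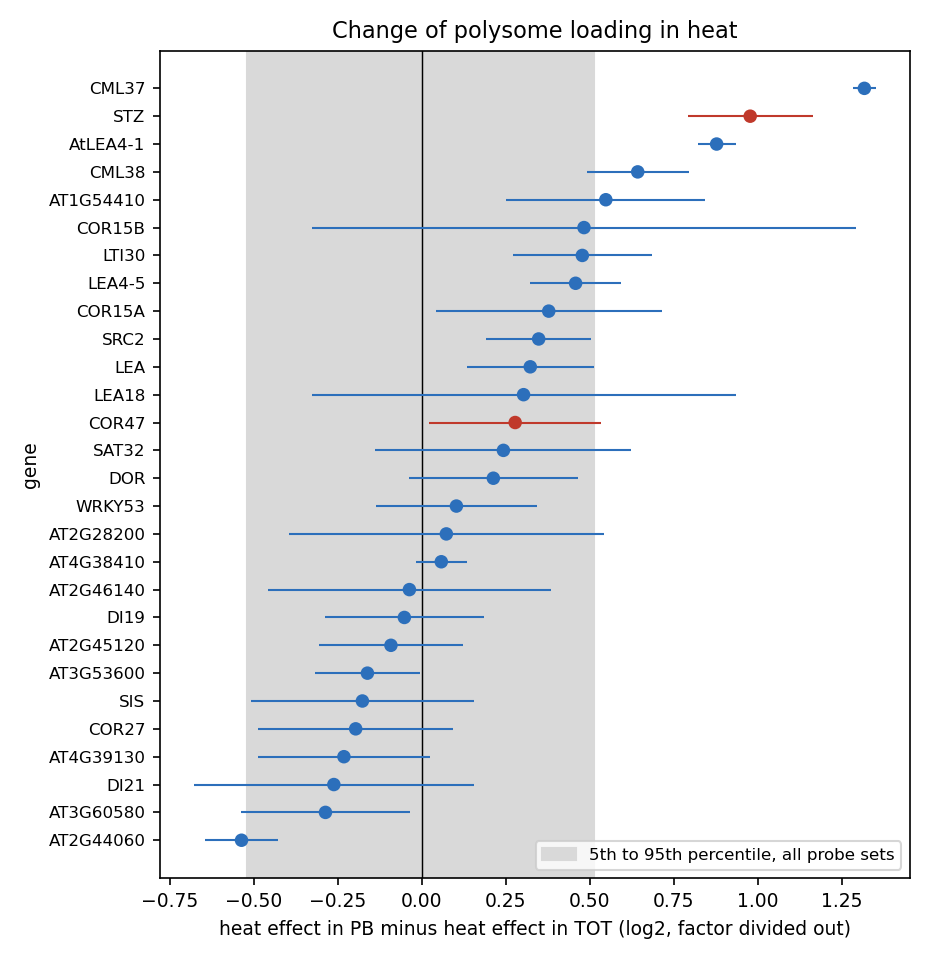
Difference between the heat effects in mRNA-PB (factor divided out) and mRNA-TOT, in log2, for STZ and COR47 (red) and 26 other listed genes (blue), with lines from the lowest to the highest value over the 4 pairs of samples and the 5th to 95th percentile of all probe sets in grey. STZ, at 0.98, lay above the grey range and COR47, at 0.28, inside it.

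The other genes were taken from 8 lists of relatives, regulators and effectors, 127 genes of which 15 had a probe set of 1 gene, and from 11 further genes whose RefSeq names hold words for cold, drought, salt, dehydrin or LEA. Of the 26 in all, 4 rose and 1 fell in mRNA-TOT, where 4.63% of all probe sets rose and 7.06% fell, with a median log2 difference of 0.10 against 0.03 over all probe sets. In mRNA-PB 4 rose and 5 fell, where 2.07% of all probe sets rose and 37.1% fell, with a median of -0.78 against -0.85. Loading was higher at 38°C without overlap in 9 and lower in 3 of the 26, against 27.3% and 24.3% of all probe sets, so the first count is near the share over all probe sets. With the factor divided out, 5 rose in mRNA-PB and 1 fell, SAT32. The annotation used here names no gene for 8794 of the 22810 probe sets and several genes for 503. In it none of the listed regulators, MAP kinase and salt transport genes or reactive oxygen enzymes had a probe set of 1 gene, so they were not analysed here.

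Of 13 zinc fingers listed as relatives of STZ, 4 had a probe set of 1 gene. In mRNA-TOT 0 of them rose or fell (limma, and 0 at an unadjusted p below 0.05), and in mRNA-PB 2 fell, which were not called with the factor divided out. AT3G60580 had a log2 difference of -0.07 in mRNA-TOT (SE 0.13, adjusted p = 0.747) and -1.22 in mRNA-PB (adjusted p = 0.000377, limma). AT2G45120 had -0.15 in mRNA-TOT (SE 0.14, adjusted p = 0.473) and -1.11 in mRNA-PB (adjusted p = 0.000583, limma). Both were dim, with deposited signals of 2.42 to 3.90 on the 8 arrays. The trp control limit was set with the factor divided out. On that scale AT3G60580 lay a little above it on all 8 arrays, and AT2G45120 lay on either side of it. AT2G28200 had signals of 4.64 and 5.85 in mRNA-PB at 38°C, against 6.33 and 7.22 at 22°C, and AT3G53600 was dim. The log2 difference of AT2G28200 in mRNA-PB was -1.53 and not called (SE 0.73, adjusted p = 0.0874, limma). With the factor divided out it was -0.66 (adjusted p = 0.573, limma). In mRNA-TOT its signals were 4.72 and 6.62 at 38°C, against 5.81 and 7.00 at 22°C, which overlap (adjusted p = 0.490, limma).

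Of 9 dehydrins other than COR47, 5 had a probe set of 1 gene, and 0 rose or fell by the rule in mRNA-TOT (limma, with 1 higher and 1 lower at an unadjusted p below 0.05). The signal of LTI30, a cold-induced dehydrin, in mRNA-TOT was 10.92 and 10.29 at 38°C, against 10.55 and 10.89 at 22°C. Its log2 difference was -0.12 in mRNA-TOT (SE 0.25, adjusted p = 0.761, limma) and -0.51 in mRNA-PB (adjusted p = 0.0984, limma). AT1G54410, the small dehydrin HIRD11, had a signal in mRNA-PB of 11.94 and 11.37 at 38°C, against 13.30 and 12.59 at 22°C. Its log2 difference in mRNA-PB was -1.29, a called fall (SE 0.39, adjusted p = 0.0181, limma) that was not called with the factor divided out, and its difference in mRNA-TOT was -0.97 (adjusted p = 0.117, limma). The dehydrin LEA, AT2G21490, had 0.98 in mRNA-TOT (SE 0.13, adjusted p = 0.00329, limma), just under 2-fold. In mRNA-PB it had 0.43 (adjusted p = 0.0202, limma), and with the factor divided out it was called as risen there, with 1.30 (adjusted p = 0.000913, limma). The difference between the heat effects was above 0 in 4 of the 5, with a median of 0.32, the value of LEA. The median over all probe sets was 0.01, so about as many of them lay above 0 as below. Loading was higher at 38°C without overlap in 3 of the 5, against 27.3% of all probe sets. LEA, AT4G38410 and AT4G39130 were dim, with deposited signals of 2.56 to 4.62. With 5 genes, neither count is read as a result about dehydrins.

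Genes that rose in both populations were SRC2, SIS, AtLEA4-1 and CML37. SRC2, a C2 domain protein named after a cold-regulated soybean gene, had a signal in mRNA-TOT of 12.29 and 12.15 at 38°C, against 9.68 and 9.59 at 22°C. Its log2 difference was 2.59 in mRNA-TOT (SE 0.13, adjusted p = 4.8e-05, limma) and 2.07 in mRNA-PB (adjusted p = 8.9e-05, limma). SIS, a salt-induced serine-rich protein, had 3.11 in mRNA-TOT (SE 0.37, adjusted p = 0.00199, limma) and 2.07 in mRNA-PB (adjusted p = 0.00221, limma). Loading of SIS was -0.87 and -0.74 at 38°C, against -0.36 and -0.89 at 22°C. AtLEA4-1 had 1.71 in mRNA-TOT (SE 0.30, adjusted p = 0.00797, limma) and 1.72 in mRNA-PB (adjusted p = 0.00182, limma). CML37 had 1.66 in mRNA-TOT (SE 0.14, adjusted p = 0.000546, limma) and 2.11 in mRNA-PB (adjusted p = 0.000108, limma). Its signals at 22°C were below the trp control limit in both populations.

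**Figure D4:**
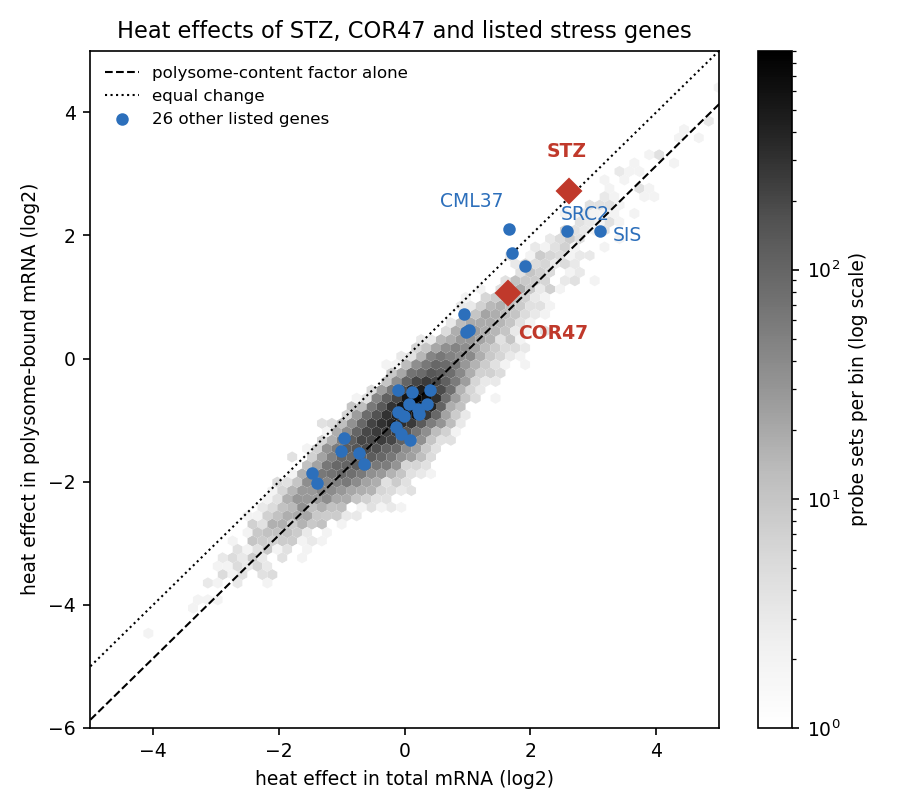
Heat effect (log2, 38°C minus 22°C) in mRNA-TOT on the x axis and in deposited mRNA-PB on the y axis, with the probe sets that fall within the axes as shaded bins on a log scale, STZ and COR47 as red diamonds and 26 other listed genes in blue. The dashed line is the change that the polysome-content factor alone gives and the dotted line an equal change: STZ, at 2.61 and 2.72, lay close to the dotted line, and COR47, at 1.65 and 1.06, between the lines.

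SAT32, a salt tolerance gene, was the only one of the 26 that fell in both populations, with -1.40 in mRNA-TOT (SE 0.23, adjusted p = 0.00629, limma) and -2.02 in mRNA-PB (adjusted p = 0.000403, limma). On the chromosome SAT32 is 4 genes away from STZ. AT1G27700, 3 genes away on the other side, had 0.33 in mRNA-TOT (adjusted p = 0.175, limma) and -0.90 in mRNA-PB. With the factor divided out, AT1G27700 had -0.03 in mRNA-PB (adjusted p = 0.917, limma). AT1G20430, the gene next to COR47, had -0.17 in mRNA-TOT (adjusted p = 0.658, limma) and -1.74 in mRNA-PB, a called fall (adjusted p = 0.00111, limma). With the factor divided out it had -0.87 in mRNA-PB and was not called (adjusted p = 0.0506, limma). None of these 3 neighbours rose by the rule in either population.

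The genes whose pattern over the 8 arrays was most like that of each member were sought among 2649 probe sets of 1 gene whose group means spanned at least 1, with the factor divided out. COR47 was the closest to STZ, with a Pearson's r of 0.995, before AT5G18420 (0.993), AT3G23170 (0.990), Hsp70-2 (0.989) and AT5G46710 (0.989). The closest to COR47 were AT5G46710 (0.997), AT5G18420 (0.995), STZ (0.995), AT4G14270 (0.993) and AT3G47550 (0.991). Hsp70-2 is a chaperone of the HSP70 family, with a heat effect of 1.95 in mRNA-TOT. An r of at least 0.95 was found for 186 probe sets with STZ and 181 with COR47. The arrays fall into 2 clusters by temperature and come from 4 seedling samples, so r carries the contrast between temperatures and is given as a description.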

How the data were processed

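Total mRNA and polysome-bound mRNA of 4 seedling samples were hybridized to 8 ATH-1 arrays, with 2 biological replicates per group by the methods of the study. The authors deposited log2 values summarised by RMA with the affy package, whose version is not given in the sources used here, and scaled the polysome-bound values at 38°C by how much the polysome content of that replicate had fallen. The log2 of this factor is -0.84 and -0.89. Relative translation efficiency and the heat effect on mRNA-PB were computed with this factor, and it was divided out for polysome loading and for the difference between heat effects.

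The 8 arrays entered one model with a mean for each group and 4 residual degrees of freedom, run in limma 3.58.1 (lmFit, then eBayes) under R 4.3.3. The p-values were adjusted by Benjamini-Hochberg across the 22810 probe sets. Heat effects were called when at least 2-fold with an adjusted p below 0.05, and differences between them by the adjusted p alone. The fit was tested on simulated data, in which 200 probe sets were given known changes and noise was drawn independently for each array. This could not show how the fit behaves where arrays of one seedling sample vary together. By the methods, both RNA populations were prepared from one seedling sample. Over all probe sets, the deviations of 2 arrays of one sample from their groups correlated with r = 0.76 for 38°C and r = 0.79 for 22°C, so the seedling sample was also fitted as a block.

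STZ and COR47, the gene lists and the tests were chosen with earlier results of these data known. Genes were named through the platform annotation, updated by RefSeq names of assembly TAIR10.1 (13436 of 13513 probe sets of 1 gene matched, 77 did not). The genes named are STZ and COR47, up to 3 called rises and 3 called falls per list and heat comparison in 8 hand-written lists, the close relatives and regulators with a probe set of 1 gene, and the 5 probe sets of 1 gene with the highest Pearson's r to each member among those whose group means spanned at least 1 on the log2 scale. Further genes were named after their values were seen: those of a list by words in RefSeq names, the chromosome neighbours, the probe sets above STZ and other listed genes given as examples. Alternatives were centring on medians, cyclic loess, spike-in scaling, a filter on dim probe sets, limma's treat test, fits on 4 arrays, blocks, the factor and leaving out arrays. Tables were made with pandas 2.3.3 and numpy 2.4.6 in Python 3.11.15, and plots with matplotlib 3.10.9.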

Additional observations from a re-analysis of the deposited data

Results flagged for a closer look

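The direction of polysome loading was opposite in the samples of the 2 temperatures for 4 of the genes described, which are STZ, COR47 and 26 others. Over all probe sets, 8.11% had loading above 0 in both samples at 38°C and below 0 in both at 22°C, and 6.82% had the reverse, so such a count is near what all probe sets give. STZ had loading above 0 in both samples at 38°C and below 0 in both at 22°C, with a difference between heat effects of 0.98 that was not tested, because STZ was selected on it. CML37 (difference 1.32) and CML38 (difference 0.64) had the same pattern, and AT2G44060, the late embryogenesis abundant protein LEA26, had the reverse (difference -0.54). For CML37 the signals at 22°C were below the trp control limit. The differences of CML38 and AT2G44060 were not called with the seedling sample as a block (adjusted p = 0.0764 and 0.104, limma). AtLEA4-1 had loading above 0 in all 4 samples, and its difference of 0.88, like that of CML37, was called with that block.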

How the results depend on the processing

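When arrays were scaled by the poly-A spike-in probe sets (whether spike-ins were added is not stated in the sources used here), the difference between heat effects was 1.80 for STZ and 1.10 for COR47, the heat effect of COR47 in mRNA-TOT was 0.98, and 4 listed genes fell in mRNA-TOT. With the polysome-content factor kept, the difference was 0.11 for STZ and -0.59 for COR47, and 11 listed genes were called below 0. With it divided out, the heat effect in mRNA-PB was 3.59 for STZ and 1.93 for COR47, and 1 listed gene fell. Leaving out 1 array gave differences of 0.44 to 1.51 for STZ and -0.092 (without replicate 1 of mRNA-TOT at 22°C) to 0.65 for COR47, and broke a seedling pair each time. With limma's treat test 0 listed genes fell in mRNA-TOT, and with only probe sets of at least 6 there were 3 falls in mRNA-PB. With the replicate number as a block 3 listed genes fell in mRNA-TOT and 9 in mRNA-PB. The study took the relative polysome content, heat-stressed over control, within each biological replicate, so it treated same-numbered samples as pairs. Whether such samples were grown or handled together is not stated. Deviations of same-numbered arrays of the 2 temperatures had an r of 0.52 in mRNA-TOT and 0.44 in mRNA-PB. With the seedling sample as a block 2 listed genes were called above 0. Over all probe sets, rises in mRNA-TOT numbered 1055, against 585 with spike-in scaling and 616 with treat. Falls numbered 1611, against 1070 with medians, 6397 with spike-in scaling and 706 with treat. In mRNA-PB 472 rose and 8453 fell, against 1079 and 1480 with the factor divided out. With the factor kept, 14691 probe sets were below 0 in the difference. Averaging the probe sets of a gene changed nothing, since each listed gene had 1. Leaving out both arrays of a seedling sample was chosen after seeing the data. The other 161 values of the main results moved by less than the spread between replicates or stayed within 1.5 times. The 2 arrays per group limit all of these values.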

Other observations

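Some listed cold-response genes differed between replicates far more than STZ and COR47. COR15B, a chloroplast protein of the cold response, had a signal of 11.03 and 6.77 in mRNA-PB at 38°C, against 12.32 and 9.20 at 22°C. In mRNA-TOT it had 11.23 and 6.32 at 38°C, against 12.27 and 8.23 at 22°C. COR15A and COR27 were likewise higher in replicate 1 in all 4 groups, with COR27 at 7.01 and 3.84 in mRNA-TOT at 38°C, against 8.65 and 3.51 at 22°C. Replicate 1 was higher in all 4 groups for 5 of the 26 listed genes, and replicate 2 for 9 of 26, LEA4-5 among them, against 17.8% and 15.3% of all probe sets. The heat effects of COR15A, COR15B and COR27 were not called in either population (limma without a block). In that fit the gap between replicates enters the error, and the SE was 1.26 to 2.23. Within same-numbered replicates of the deposited values, COR15A and COR15B were lower at 38°C in both populations. COR27 was lower in deposited mRNA-PB, but in mRNA-TOT its replicate 2 was higher at 38°C. The deposited mRNA-PB values at 38°C carry the polysome-content factor (log2 -0.84 in replicate 1 and -0.89 in replicate 2). It is larger than the mRNA-PB gap between temperatures of COR15A in replicate 1 and of COR27 in replicate 2. With it divided out, these 2 were thus not lower at 38°C. Replicate 2 of COR27 at 22°C, at 3.42 and 3.51, was also close to the trp control limit of 3.32.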
